A study of Homo sapiens with 6 samples.

Results

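The 9 genes described here, HLA-B, HLA-C, HLA-E, HLA-F, B2M, TAP1, TAP2, TAPBP and NLRC5, encode parts of the MHC class I presentation pathway. They were chosen by name, and all 9 had a row among the 26364 genes of the deposited table. Their transcripts were measured by RNA-seq in the human cell line MV4-11, which was established from an acute myeloid leukaemia and carries an internal tandem duplication of the receptor tyrosine kinase gene FLT3. Of 6 libraries of total RNA, 3 were made from cells in the solvent DMSO alone and 3 from cells exposed to 10 nM 22d, a compound named in the labels by a code and known as an inhibitor of the deacetylase HDAC8. Both groups were harvested after 18 h and share the cell line and its FLT3 duplication, so every value describes 1 line without immune cells around it. Separate cultures are not stated in the labels, which only number the libraries. The p-values therefore measure the spread between these samples alone, which may be technical.

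Class I molecules show peptides from inside the cell to CD8 T cells. A heavy chain, such as HLA-B or HLA-C, folds with the light chain beta-2 microglobulin (B2M) in the endoplasmic reticulum. Proteasomes cut cytosolic proteins into peptides, the transporter made of TAP1 and TAP2 pumps these into the endoplasmic reticulum, and tapasin (TAPBP) holds an empty class I molecule beside the transporter until a peptide binds. HLA-E presents mainly leader peptides of other class I chains to receptors of NK cells, HLA-F is a heavy chain of low abundance, and NLRC5 is the coactivator that drives transcription from class I promoters together with RFX and NFY factors. Many of these promoters also carry an interferon-stimulated response element, the site where IRF and STAT factors bind.

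The promoters are shown first because the genes share letters there that did not serve to choose them. RefSeq promoter windows (GRCh38.p14, the 250 bases before the annotated start) were matched by symbol for 7 of the 9 genes, which leaves HLA-E and NLRC5 named only. In the stretches of HLA-B, HLA-C and B2M the capitals mark, from left to right, matches to the core of an interferon-stimulated response element (AANNGAAA or GAAANNGAAA on either strand), to the half-site TGACG of a cyclic AMP response element, and to the CCAAT box, whose opposite strand reads ATTGG.
HLA-B (chr6:31357251-31357340, minus strand): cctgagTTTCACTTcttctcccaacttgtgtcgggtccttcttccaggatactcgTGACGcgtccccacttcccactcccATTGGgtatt
HLA-C (chr6:31272163-31272249, minus strand): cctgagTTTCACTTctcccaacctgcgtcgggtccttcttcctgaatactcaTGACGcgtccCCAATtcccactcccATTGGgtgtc
B2M (chr15:44711369-44711477, plus strand): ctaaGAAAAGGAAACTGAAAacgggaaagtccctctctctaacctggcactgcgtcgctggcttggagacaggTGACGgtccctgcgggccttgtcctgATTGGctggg
The stretches were cut to run from the response element to the first reversed CCAAT box after it. Their first and last matches were therefore set by the cut, and the half-site lay between these in all 3. These 3 genes were picked by name for this display. HLA-F also had a reversed CCAAT box after its response element, at -82 to -78, but no TGACG in its window. All 3 stretches lay outside the annotated exons of protein-coding genes. HLA-C had a further CCAAT between the last pair. In HLA-B the 3 matches stood at bases -155 to -148, -106 to -102 and -81 to -77, counted back from the start. In HLA-C they stood at -151 to -144, -105 to -101 and -80 to -76. The window of HLA-B held further CCAAT matches at -74 to -70, cut by the end of the stretch, and at -56 to -52. Outside its stretch HLA-C had CCAAT matches at -192 to -188 and -56 to -52.

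For the other matched genes 30 bases around the response element are given, to show that TAP1, TAP2 and TAPBP carry tandem copies of the letters GAAA or, read from the opposite strand, TTTC.
HLA-F (chr6:29723267-29723296, plus strand): tctccccagagTTTCTCTTTCtctcccaac
TAP1 (chr6:32853817-32853846, minus strand): gcggccgcTTTCGATTTCGCTTTCccctaa
TAP2 (chr6:32838780-32838809, minus strand): ggctggggAAGCGAAAGCGAAAgctgcccg
TAPBP (chr6:33314079-33314108, minus strand): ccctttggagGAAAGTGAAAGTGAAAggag
The stretches of TAP1, TAP2 and TAPBP lay on annotated exons of protein-coding genes over all 30 bases, and that of HLA-F over 18 of 30. The form AANNGAAA occurred in 7 of 7 windows, against 20.3% of the 34943 RefSeq windows of the same length. The longer form GAAANNGAAA, which contains the shorter one, occurred in 5 of 7 windows against 3.02%, TGACG in 4 of 7 against 21.2%, and CCAAT in 5 of 7 against 32.0%. A match to the NF-kB consensus was found in 5 of 7 windows against 9.95%. These counts are descriptions of letters on both strands, the form of the response element was chosen after these promoters had been seen, and reference alleles stand in for those of MV4-11. Of the genes with the longer form in these windows, TAP1 and B2M rose with 22d, TAP2 and TAPBP fell, and HLA-F did not pass the test, as given below.

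Each library held 19995430 to 23749257 reads in genes. Genes with at least 1 read numbered 16268 to 17055 in 5 libraries and 19285 in 22d replicate 3, and 22d replicate 1 lay farthest from the DMSO libraries on the first principal component. All 8 myeloid markers were present, and their summed normalized counts ranged from 61966 to 80828 in the DMSO libraries and from 37507 to 48119 in the 22d libraries. Of these markers, 3 were called higher and 3 lower with 22d, against 28.5% and 29.6% of all genes tested. MPO and LYZ, which encode a granule peroxidase and lysozyme, fell by 2.59 and 1.46 on the log2 scale, and FCGR1A fell by 0.85. LYZ carried most of the summed level in the DMSO libraries but not in the 22d libraries. CD68, ITGAM and CSF1R, which encode a lysosomal protein, an integrin chain and the M-CSF receptor, rose by 0.98, 0.80 and 0.78. The part of this shift in the results below was not tested. T and NK cell markers summed to at most 7.97 normalized counts in any library, with CD3D and CD2 at 0, and the B cell marker MS4A1 was at 0 in all 6. Erythroid markers summed to at most 10.2, epithelial markers to 10.1 and fibroblast markers to 30.2 normalized counts.

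Of the 9 genes, 3 rose with 22d (HLA-E, B2M and TAP1), 3 fell (TAP2, TAPBP and NLRC5) and 3 did not pass the test (HLA-B, HLA-C and HLA-F). A gene was called at an adjusted p under 0.05 by limma-trend on log2(normalized count + 1), with Benjamini-Hochberg adjustment over the 13297 genes whose mean reached 10 normalized counts, a filter that all 9 genes passed. In that fit 58.0% of all genes tested were called, 28.5% higher and 29.6% lower, so 6 called of 9 is close to the share among all genes. The groups of 3 libraries did not overlap for 6 of the 9 genes, against 65.4% of all genes tested. The median log2 fold change was 0.14 over the 9 genes and 0.01 over all genes, and the median absolute change was 0.40 and 0.49. In RNA of whole cultures, fewer cells of a kind and less RNA per cell cannot be told apart. When libraries were scaled by their totals in place of the deposited scaling, the median of all genes moved to 0.23, and the share of calls that were higher moved from 49.0% to 65.7%. Under that scaling 5 of the 9 genes were called higher, against 39.7% of all genes, and 1 lower, against 20.8%. Under quantile normalization 5 of the 9 genes were also called higher and 1 lower. Over all genes 7591 of 13297 were called under quantile normalization, and 52.0% of these calls were higher.

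**Figure D1:**
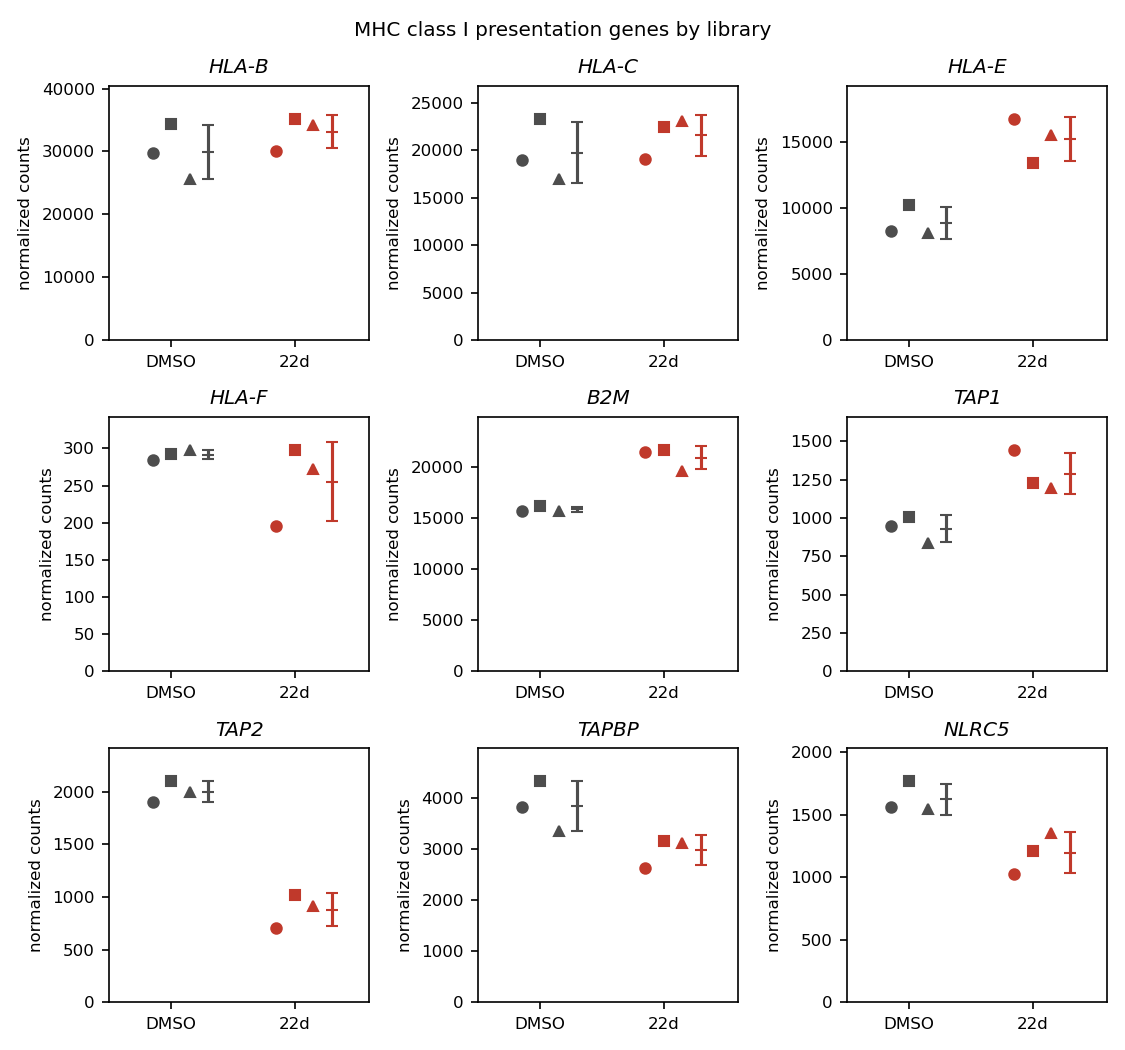
Normalized counts of the 9 genes in each library (vertical axes from 0; circle, square and triangle are replicates 1, 2 and 3; bars are the mean ± SD of 3 libraries). The 22d libraries of HLA-E, B2M and TAP1 all sit above the DMSO libraries, those of TAP2, TAPBP and NLRC5 all sit below, and the groups overlap for HLA-B, HLA-C and HLA-F.

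The classical heavy chains HLA-B and HLA-C, which present peptides to CD8 T cells, did not pass the test. HLA-B stood at 29818, 34344 and 25696 normalized counts in DMSO replicates 1, 2 and 3, and at 30115, 35129 and 34192 in the 22d replicates. HLA-C stood at 19002, 23282 and 16969 with DMSO and at 19142, 22512 and 23093 with 22d. For both genes DMSO replicate 3 was the lowest of the 6 libraries and the groups overlapped. The log2 fold change of HLA-B was 0.15 (95% confidence interval -0.12 to 0.42, limma adjusted p = 0.31), and that of HLA-C was 0.14 (-0.14 to 0.41, limma adjusted p = 0.39). These intervals leave room for a rise of up to 1.34-fold in HLA-B and 1.33-fold in HLA-C. Both calls turned on the scaling. Under quantile normalization the changes were 0.41 (limma adjusted p = 0.0020) for HLA-B and 0.38 (limma adjusted p = 0.0055) for HLA-C, and under library totals 0.37 (limma adjusted p = 0.0037) and 0.36 (limma adjusted p = 0.0084).

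HLA-E and HLA-F, the heavy chains outside the classical set, differed from each other. HLA-E, whose product is read by NK cell receptors, rose from 8311, 10270 and 8133 normalized counts with DMSO to 16758, 13426 and 15542 with 22d. Every 22d library lay above every DMSO library. The mean of 3 libraries went from 8905 ± 1186 to 15242 ± 1686 (SD), and the log2 fold change was 0.78 (SE 0.12; limma adjusted p = 0.00013), and the call held under every alternative run. HLA-F stood at 284, 293 and 297 normalized counts with DMSO and at 196, 298 and 272 with 22d. Its 22d replicate 1 was the lowest library and the other two lay near the DMSO values. The log2 fold change was -0.21 (95% confidence interval -0.57 to 0.14, limma adjusted p = 0.28), and -0.03 (limma adjusted p = 0.85) without 22d replicate 1.

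B2M, the light chain with which class I heavy chains fold, rose. It stood at 15671, 16136 and 15641 normalized counts with DMSO and at 21372, 21598 and 19555 with 22d. The DMSO libraries lay close together and below all 3 22d libraries. Over 3 libraries a group, the mean went from 15816 ± 277 to 20842 ± 1120 (SD), for a log2 fold change of 0.40 (limma SE 0.10, adjusted p = 0.0038).

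TAP1 and TAP2, the genes of the heterodimeric peptide transporter, moved in opposite directions. TAP1 rose from 947, 1008 and 835 normalized counts in the DMSO libraries to 1442, 1231 and 1195 in the 22d libraries. TAP2 fell from 1902, 2099 and 1993 normalized counts to 710, 1018 and 915. Neither gene's groups overlapped, and 22d replicate 1 was the extreme library of both. The log2 fold change was 0.47 for TAP1 (SE 0.12, limma adjusted p = 0.0046) and -1.20 for TAP2 (SE 0.13, limma adjusted p = 8.1e-06), the largest change in size among the 9 genes under the deposited scaling; under library totals and quantile normalization HLA-E changed by slightly more. Without 22d replicate 1 the changes were 0.39 (limma adjusted p = 0.012) and -1.05 (limma adjusted p = 4.6e-06). Both calls held under every alternative run.

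The ratio of TAP1 to TAP2 within a library is free of any factor by which that library is scaled, apart from the added 1. Its log2 value was -1.01, -1.06 and -1.25 with DMSO and 1.02, 0.27 and 0.38 with 22d. TAP2 therefore had more normalized counts than TAP1 in all 3 DMSO libraries and fewer in all 3 22d libraries. The difference between the group means was 1.67, a 3.17-fold shift of the ratio. By the exact two-sided permutation test over libraries p was 0.1, the smallest that 3 against 3 can give, and 0.157 after Benjamini-Hochberg adjustment over the 11 ratios compared, so no ratio could pass. Without any 1 library the difference lay between 1.43 and 1.81.

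TAPBP, which encodes the loading chaperone tapasin, fell from 3822, 4319 and 3356 normalized counts with DMSO to 2634, 3160 and 3111 with 22d. The groups did not overlap, but the lowest DMSO library was close to the highest 22d library. Mean levels over 3 libraries were 3832 ± 482 and 2968 ± 291 (SD), for a fitted log2 change of -0.37 (SE 0.12, limma adjusted p = 0.018). This call was lost without DMSO replicate 1 (limma adjusted p = 0.054), without DMSO replicate 2 (limma adjusted p = 0.078) and without 22d replicate 1 (limma adjusted p = 0.056). It was lost as well under quantile normalization (-0.06, limma adjusted p = 0.66), under library totals (-0.14, limma adjusted p = 0.25) and with no filter on low genes (limma adjusted p = 0.12).

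NLRC5, the coactivator of class I genes, fell from 1564, 1769 and 1545 normalized counts with DMSO to 1029, 1212 and 1352 with 22d. All 3 22d libraries lay below the DMSO libraries. Group means were 1626 ± 124 and 1198 ± 162 normalized counts (SD, n = 3 each), with a log2 change of -0.45 (SE 0.12, limma adjusted p = 0.0070). The call was lost under library totals (-0.23, limma adjusted p = 0.12), just lost under quantile normalization (-0.30, limma adjusted p = 0.0502), and lost with no filter (limma adjusted p = 0.068). In the authors' deposited table the same 6 genes passed an adjusted p of 0.05, with log2 fold changes of 0.77 for HLA-E, 0.40 for B2M, 0.46 for TAP1, -1.16 for TAP2, -0.36 for TAPBP and -0.43 for NLRC5.

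**Figure D2:**
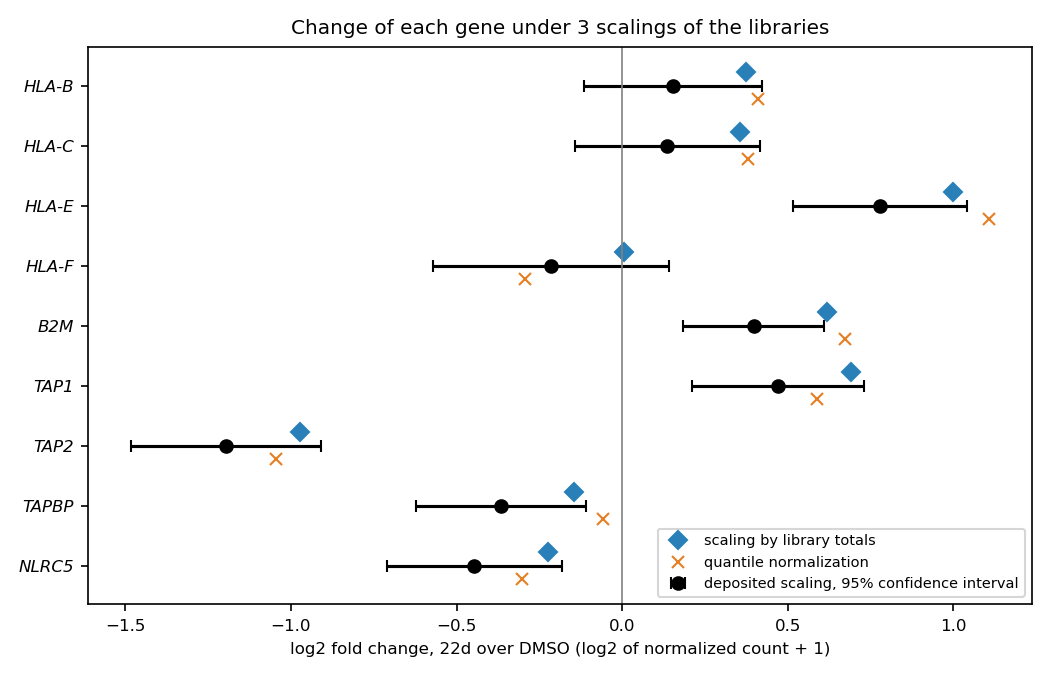
Log2 fold change of each gene, 22d over DMSO, under the deposited scaling (black points with 95% confidence intervals), scaling by library totals (blue diamonds) and quantile normalization (orange crosses). HLA-E, B2M, TAP1 and TAP2 keep their side of 0 and their call under all 3, HLA-B and HLA-C move up to about 0.4, TAPBP and NLRC5 move toward 0, and HLA-F lies at 0.01 under library totals.

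Other partner genes were compared in the same way. The log2 ratio of HLA-B to HLA-C was 0.65, 0.56 and 0.60 with DMSO and 0.65, 0.64 and 0.57 with 22d, a difference of 0.02 (exact permutation p = 0.7, adjusted p = 0.7 over the 11 ratios). The ratio stayed within a narrow range although both genes were low in DMSO replicate 3. HLA-B relative to B2M differed by -0.24 between the groups, whose libraries overlapped (exact permutation p = 0.2, adjusted p = 0.244). HLA-E relative to HLA-B was higher in every 22d library than in every DMSO library, a 1.54-fold shift (difference 0.62, exact permutation p = 0.1, adjusted p = 0.157). NLRC5 relative to HLA-B was lower in all 3 22d libraries (difference -0.60), as were TAPBP relative to TAP1 (-0.84) and HLA-F relative to HLA-B (-0.37), each with the same exact permutation p of 0.1 and adjusted p of 0.157.

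**Figure D3:**
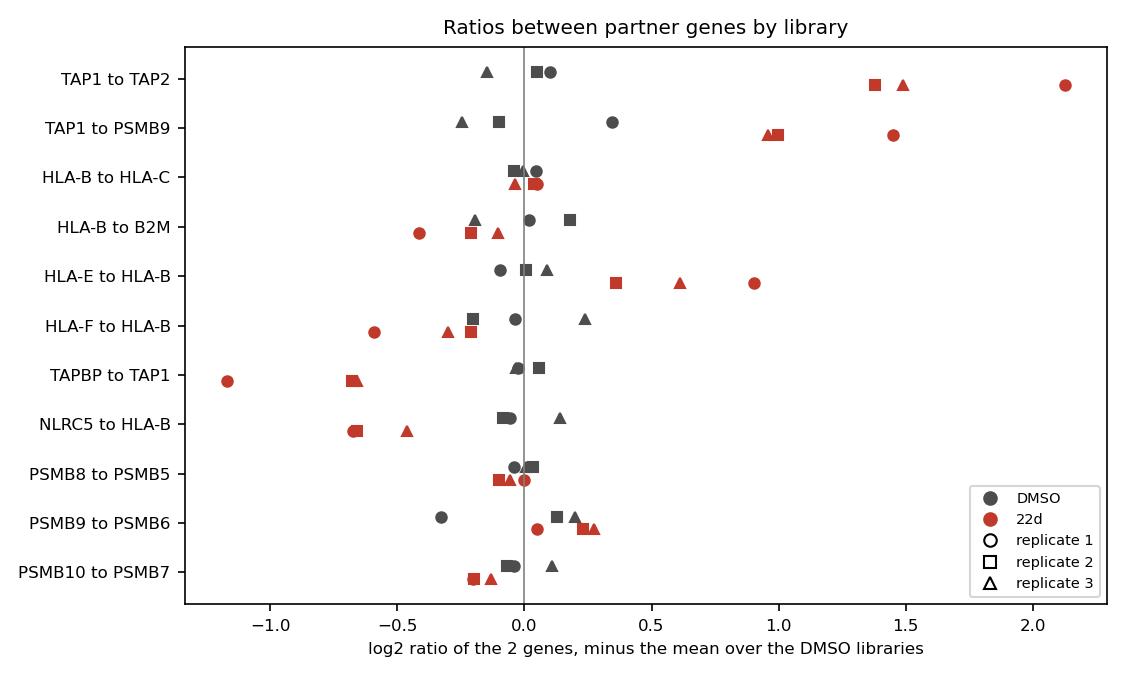
Log2 ratio of the normalized counts of 2 partner genes in each library, minus the mean of that ratio over the DMSO libraries (DMSO grey, 22d red; circle, square and triangle are replicates 1, 2 and 3). TAP1 to TAP2 lies highest with 22d and HLA-B to HLA-C stays within 0.1 of 0 in all 6 libraries.

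Levels were compared between genes per kilobase of exon, using the merged exons of each gene in GENCODE v29 on GRCh38. HLA-B led with 18886 ± 2727 normalized counts per kilobase in DMSO (SD, n = 3), followed by HLA-C at 12710, B2M at 6651, HLA-E at 3424 and TAPBP at 914. TAP2 at 324, TAP1 at 314, NLRC5 at 238 and HLA-F at 147 normalized counts per kilobase closed the order. Only TAP2 and TAP1 had overlapping ranges among neighbours in this order. With 22d the first 5 places were the same, at 20899, 13888, 8764, 5860 and 708 normalized counts per kilobase. TAP1 then followed at 436, NLRC5 at 176, TAP2 at 143 and HLA-F at 128, and the ranges of NLRC5 and TAP2 overlapped, as did those of TAP2 and HLA-F. TAP2 thus left its place beside TAP1 and came to lie near the level of HLA-F. Of the summed level per kilobase of the 4 heavy chains given here, HLA-E made up 9.30% to 10.3% in the DMSO libraries and 12.3% to 17.0% in the 22d libraries.

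In GENCODE v29 (GRCh38) 7 of the genes lie on chromosome 6: HLA-F at 29722775 to 29738528, HLA-E at 30489467 to 30494205, HLA-C at 31268749 to 31272130, HLA-B at 31269491 to 31357188, TAP2 at 32821833 to 32838780, TAP1 at 32845209 to 32853978 and TAPBP at 33299694 to 33314387. B2M lies on chromosome 15 at 44711487 to 44718877 and NLRC5 on chromosome 16 at 56989485 to 57083531. The annotated extents of HLA-B and HLA-C overlap on the same strand. HLA genes resemble each other, so the share of each gene's transcript stretches found in another gene of the table was counted. Of stretches of 50 bases, 2.72% were shared for HLA-B, 5.38% for HLA-C, 4.34% for HLA-E and 8.57% for HLA-F. Of stretches of 100 bases none was shared for HLA-B, 0.126% for HLA-C, 0.491% for HLA-E and 4.04% for HLA-F. The values of the HLA genes are uncertain to the extent that reads were split or lost there, and to the extent that the alleles of MV4-11 differ from the reference.

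Both transcripts on the opposite strand that share sequence with a gene described here were low. HLA-F-AS1, antisense to HLA-F, stood at 21.6, 12.4 and 11.0 normalized counts with DMSO and at 41.1, 31.9 and 36.9 with 22d, a rise of 1.29 on the log2 scale (limma adjusted p = 0.0048). PSMB8-AS1 shared 7.26% of the 100-base stretches of TAP1 and stood at 81.9, 93.1 and 83.4 normalized counts with DMSO, and at 74.3, 83.0 and 66.3 with 22d. It did not pass the test (log2 fold change -0.21, limma adjusted p = 0.37). The strand setting of the counting was not given in the sources used here, so reads of a gene and its antisense partner cannot be told apart.

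Genes of the proteasome, which supplies peptides to the transporter, fell. The immunoproteasome swaps inducible catalytic subunits into the proteasome, and the PA28 activator caps it. All 7 genes of this list were called lower, against 29.6% of all genes tested. Their median log2 fold change was -0.70, against 0.01 over all genes tested. With no filter on low genes 6 of them were called lower. PSME2 and PSME3, which encode subunits of PA28 complexes, fell by 1.58 and 1.35, and the inducible subunits PSMB8, PSMB9 and PSMB10 fell by 0.93, 0.66 and 0.67 (limma adjusted p = 1.3e-05, 0.0020 and 7.2e-05). The 3 constitutive catalytic subunits that they replace were called lower too: PSMB5 by 0.88, PSMB6 by 0.85 and PSMB7 by 0.49 on the log2 scale.

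Inducible subunits were compared with the constitutive ones they replace. PSMB8 relative to PSMB5 differed by -0.05 between the groups and PSMB9 relative to PSMB6 by 0.19, both with overlapping libraries (exact permutation p = 0.2 and 0.5, adjusted p = 0.244 and 0.55). PSMB10 relative to PSMB7 was lower in every 22d library by a mean difference of -0.18 (exact permutation p = 0.1, adjusted p = 0.157). TAP1 and PSMB9 are known to be transcribed away from each other from a shared promoter, and the annotated extent of PSMB9 (32844136 to 32859585 on chromosome 6, plus strand) covers that of TAP1. PSMB9 stood at 562, 815 and 748 normalized counts with DMSO and at 398, 465 and 464 with 22d, so it fell while TAP1 rose. The log2 ratio of TAP1 to PSMB9 went from 0.75, 0.31 and 0.16 with DMSO to 1.85, 1.40 and 1.36 with 22d, a difference of 1.13 with no overlap (exact permutation p = 0.1, adjusted p = 0.157).

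Genes of peptide loading and glycoprotein quality control in the endoplasmic reticulum were also lower. Of 7 such genes 5 were called lower, none higher and 2 did not pass, with a median log2 fold change of -0.64. Among all genes tested 29.6% were called lower and 28.5% higher. CALR, the chaperone calreticulin of the loading complex, fell from 40652, 35251 and 31836 normalized counts to 11813, 15164 and 14133. That is a change of -1.39 on the log2 scale (limma adjusted p = 1.5e-06), larger in size than that of TAPBP, with the 3 22d libraries far below the others. PDIA3, the disulfide isomerase bound to tapasin, fell by 0.84 (limma adjusted p = 8.2e-05). CANX, the membrane-bound chaperone calnexin, and TAPBPL, a relative of tapasin that edits peptides, did not pass; both were named after their values had been seen, as the 2 genes outside the calls. Under library totals and under quantile normalization 1 gene of this list was called higher and 4 lower. The shares of all genes under library totals were 39.7% and 20.8%. Under quantile normalization 52.0% of the calls over all genes were higher.

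Of 8 peptidases that trim or destroy peptides, 4 were called higher, 1 lower and 3 did not pass, with a median log2 fold change of 0.25. The 5 called of 8 are close to the 58.0% called among all genes. ERAP2, an aminopeptidase that trims peptides in the endoplasmic reticulum, went from 48.9, 76.5 and 93.2 normalized counts to 141, 166 and 150, a rise of 1.10 (limma adjusted p = 0.0012). LNPEP, an aminopeptidase of endosomes, rose by 0.54 (limma adjusted p = 0.0019). THOP1, a cytosolic peptidase that can destroy class I peptides, fell from 6490, 7241 and 5683 normalized counts to 1653, 2082 and 2122, a change of -1.73 (limma adjusted p = 2.8e-07). With no filter on low genes 2 peptidases were called higher.

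**Figure D4:**
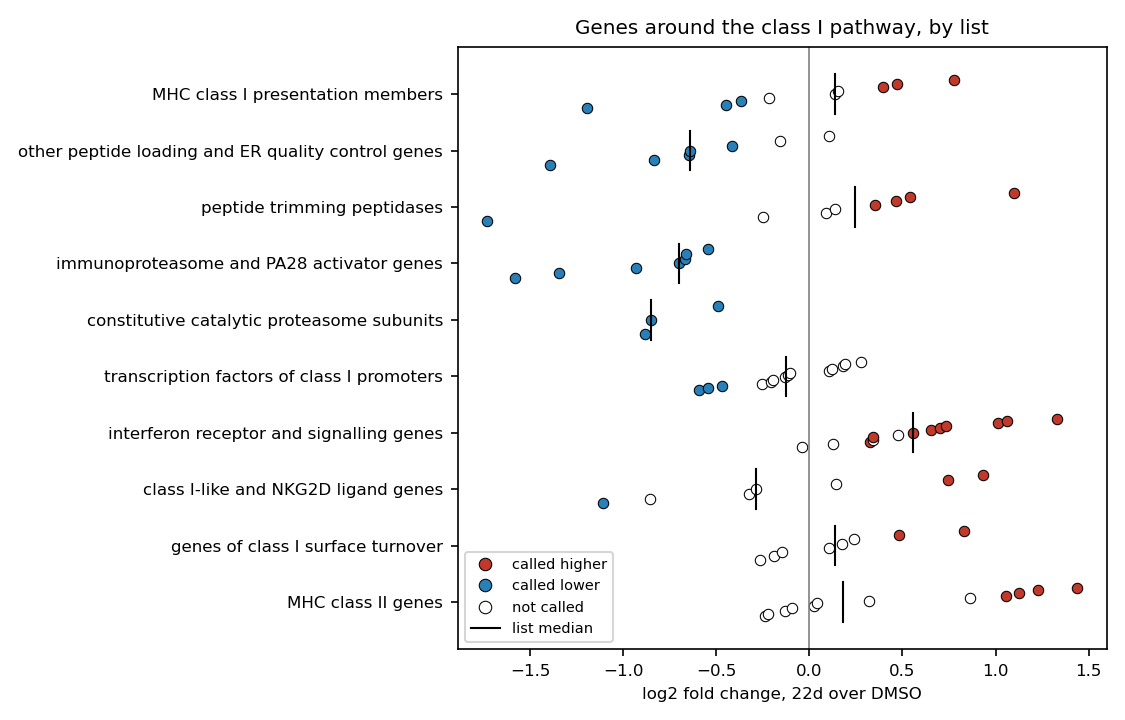
Log2 fold change, 22d over DMSO, of each tested gene in the 9 genes described here and in 9 lists of related genes (red called higher, blue called lower, open not called, black line the median of the list). All immunoproteasome, PA28 and constitutive catalytic genes lie below 0, while interferon receptor and signalling genes lie mostly above 0.

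Most transcription factors known to act on class I promoters did not pass. Of 14 tested, 3 were called lower, none higher and 11 did not pass, with a median log2 fold change of -0.13. Among all genes tested 29.6% were called lower and 28.5% higher, so the count called lower is not set apart from the background. NFYA, a subunit of the factor that binds CCAAT, fell by 0.59 (limma adjusted p = 0.0012), and RFXAP, a subunit of the RFX complex, fell by 0.54 (limma adjusted p = 0.0033) with the call lost under library totals (limma adjusted p = 0.070). The NF-kB subunit RELA, named after its value had been seen, fell by 0.47. IRF1, an interferon-induced factor that binds the response element and was likewise named after its value had been seen, did not pass (log2 fold change 0.12, limma adjusted p = 0.36). This list turned on the scaling, with 5 called higher and 2 lower under library totals and 3 higher and 2 lower under quantile normalization. Of all genes under library totals 39.7% were called higher and 20.8% lower. Of the calls over all genes under quantile normalization, 52.0% were higher.

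Most interferon receptor and signalling genes rose. Of 13 tested, 9 were called higher, against 28.5% of all genes tested, none lower and 4 did not pass. The median log2 fold change was 0.56. STAT2 rose from 1183, 1117 and 1017 normalized counts to 3338, 2537 and 2516 (log2 fold change 1.33, limma adjusted p = 2.3e-06), and the receptor kinase JAK2 rose by 1.06 (limma adjusted p = 8.6e-06). Under library totals 12 of the 13 genes were called higher, against 39.7% of all genes.

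Of 15 listed class I-like genes 7 had enough counts to be tested, of which 2 were called higher, 1 lower and 4 did not pass. Among all genes tested 28.5% were called higher and 29.6% lower, so these counts are not set apart from the background. MR1, which presents vitamin metabolites to MAIT cells, went from 860, 769 and 886 normalized counts to 1742, 1566 and 1501, a rise of 0.93 (limma adjusted p = 1.5e-05). MICA, a stress ligand of the NK receptor NKG2D, rose by 0.74 (limma adjusted p = 0.0017), and CD1D, which presents lipids to NKT cells, fell by 1.11 (limma adjusted p = 0.0015). Among 8 genes of class I surface turnover 2 were called higher, close to the 28.5% of all genes tested, and none lower. Under quantile normalization and under library totals 4 of the 8 were called higher, against 39.7% of all genes under library totals. Over all genes, 52.0% of the calls under quantile normalization were higher. SUSD6, whose product helps to send class I molecules for degradation, rose from 1014, 996 and 1019 normalized counts to 2042, 1652 and 1723, a change of 0.83 (limma adjusted p = 4.0e-05), and the membrane ubiquitin ligase gene MARCH8 rose by 0.48 (limma adjusted p = 0.013).

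For class II, 12 of 13 listed genes were tested, of which 4 were called higher, close to the 28.5% of all genes, none lower and 8 did not pass. The count called higher was 6 under library totals and without DMSO replicate 1, 3 without DMSO replicate 2 or 3, and 2 with no filter. The share of all genes called higher under library totals was 39.7%. CIITA, the class II coactivator and a relative of NLRC5, went from 510, 418 and 350 normalized counts to 1233, 1067 and 1137, a rise of 1.44 (limma adjusted p = 3.1e-06), while NLRC5 fell. HLA-DPA1 was called higher (1.13, limma adjusted p = 0.019) although its groups overlapped, with 270 normalized counts in DMSO replicate 1 against 78.6 and 76.8 in the other DMSO libraries. That call was lost by DESeq2 (adjusted p = 0.21), without DMSO replicate 2 (limma adjusted p = 0.093) and without DMSO replicate 3 (limma adjusted p = 0.093).

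The genes most like HLA-B and NLRC5 across the 6 libraries were sought among the 10268 genes whose mean reached 100 normalized counts, by the root mean square difference of their centred log2 profiles. Nearest to HLA-B were ADGRE5 at 0.027, PLXNB2 at 0.033 and HLA-C at 0.039. ADGRE5 encodes the leukocyte adhesion receptor CD97 and PLXNB2 a semaphorin receptor. Nearest to NLRC5 were AKAP8 and TAF10, both at 0.033, and SLX4 at 0.034, and each was called lower with 22d by about as much as NLRC5 (-0.44, -0.43 and -0.42). These 6 libraries share the scaling and the group difference, so likeness here is a description only.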

How the data were processed

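Total RNA of MV4-11 cells (3 DMSO, 3 22d libraries) was sequenced. The submitters' processing notes name DESeq2, HTSeq, STAR, cutadapt and FastQC and build hg38, without versions. The annotation, filters and strand setting are not given in the sources used here. One table was deposited. It gives, per the file headers, a signal per library (normalized counts) and its mean. The authors also deposited a log2 fold change, its standard error, a test score, a p-value and an adjusted p-value per gene. Columns were matched to libraries by arm and number. A read was worth 0.839 to 1.14 normalized counts, depending on the library. Divided by that worth, 100% of the deposited signal values lay within 0.001 of a whole number, which gave 19995430 to 23749257 whole reads per library.

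The main test was limma-trend (limma 3.58.1, R 4.3.3) on log2(normalized count + 1) for genes whose mean reached 10, with calls at an adjusted p (Benjamini-Hochberg) below 0.05. It called 7718 of 13297 genes. On the recovered reads edgeR 4.0.16 (quasi-likelihood, TMM) called 7723 genes and DESeq2 1.42.0 called 7537. Fold changes are on the log2(normalized count + 1) scale, which understates changes of low genes. Ratios were tested by exact permutation over libraries. The scripts were tested on simulated data. Alternatives changed the pseudocount, filter, scaling, replicate block, tool and the libraries included.

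The genes described and all lists were chosen with earlier results of these data known. Besides the 9 genes and the genes of the ratios, each list other than the cell type markers named up to 2 called genes that rose most and 2 that fell most, provided that their mean reached 100 normalized counts, and the 3 genes most like HLA-B and NLRC5 were named.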

Additional observations from a re-analysis of the deposited data

How the results depend on the processing

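Calls of HLA-E, B2M, TAP1 and TAP2 held under every alternative run. The number of the 9 genes called higher was 3, and 5 under quantile normalization and under scaling by library totals, where HLA-B and HLA-C joined. The number called lower was 3, and 1 with no filter, under quantile normalization and under library totals, where TAPBP and NLRC5 were lost; with 1 library left out it lay between 2 and 3. The change of HLA-F turned to 0.0058 under library totals (limma adjusted p = 0.98). The difference in the ratio of HLA-B to HLA-C lay between -0.0037, without DMSO replicate 2, and 0.045. Of all genes, 5822 of 26364 were called with no filter, and 8057 under library totals. Under quantile normalization 7591 of 13297 were called, 52.0% of them higher. With 1 library left out 6693 to 7445 were called. Same-numbered libraries did not deviate together (correlations of -0.03, -0.02 and -0.10), so the numbers give no pairing; with the replicate block 7419 genes were called, and 3 of the 9 genes were called higher and 3 lower. Among 24 other named genes, calls of PSMB9, CD1D, MARCH8 and HLA-DPA1 were lost with no filter (limma adjusted p = 0.055, 0.088, 0.087 and 0.28) and that of RFXAP under library totals. The causes were not tested. HLA-F had the fewest reads of the 9 genes, 200 in 22d replicate 1, and the largest standard error (0.17), and 8 class I-like genes were too low to test.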
